A study of Mus musculus with 6 samples.

Results

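A set of 10 genes was described, most of them barely read in colonies of wild type marrow and read more often in colonies labelled as Psip1 knockout: Abcc8, Fzd8, Uchl1, Adra2c, Prickle2, Xkr6, Adamts1, Elavl2, Fgfr1 and 1700030C10Rik. They were taken from 46983 genes in the deposited tables because their reads per 1000000 gene reads of the library (RPM) were higher in each knockout library than in the first and second wild type libraries. The contrast between the genotypes therefore chose them, and their levels are given as a description with no test. Recomputed from the counts, the condition held for 9 of the 10, against 4.84% of the 12292 genes with enough reads to be tested and 5.03% of the 22220 genes with a read in WT replicates 1 and 2 or in KO. The opposite order, lower in each knockout library, held for 3.54% of the tested genes. The exception was Elavl2, at 2.69 RPM in the second knockout library and 2.78 RPM in the second wild type library.

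Messenger RNA was sequenced from colonies grown by bone marrow progenitors of C57BL/6 mice, aged 8 to 11 weeks in the labels. The progenitors had been freed of mature blood cells and were cultured for 6 to 7 days in methylcellulose that held stem cell factor and the interleukins IL-3 and IL-6, with no other treatment named. The 6 samples formed 2 groups of 3. Mice of the WT group are labelled wild type, and the design text of the series gives them as PsipFl/Fl, a name for a floxed allele. The KO group has the genotype Psip1-KO, and the design gives PsipVav/Vav, with no further account of that allele. Psip1 encodes LEDGF, a chromatin reader of marked gene bodies. The series title sets LEDGF's part in leukaemia with rearranged MLL against its part in healthy blood. Nothing in the labels ties a library to an animal or says that animals were pooled. The p-values therefore measure the spread between these libraries, and how much of it is technical is not known.

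The depth differed between libraries. WT replicates 1 and 2 and the 3 KO libraries held 7056614 to 15569088 gene reads, while WT replicate 3 held 27909. These first 5 are called the deep libraries. In WT replicate 3 a count of 0 allows up to 107 RPM, the level of 3 reads, which is the limit used throughout for a count of 0. The 95% Poisson intervals drawn in the plots are two-sided and reach 3.69 reads at a count of 0, and both cover counting error only. Mitochondrial genes took 15.7% of gene reads in KO replicate 2 and 9.52% in WT replicate 3, against 1.26% to 1.84% in the others. Xist and Y-linked reads marked WT replicate 2 and KO replicate 1 as female and the other 4 libraries as male, so each group holds material of more than 1 animal. Psip1 itself stood at 85.9 and 68.6 RPM in WT replicates 1 and 2 and at 14.8, 15.7 and 15.9 RPM in KO replicates 1, 2 and 3, with 3 reads in WT replicate 3. Its log2 fold change was -2.32 (SE 0.32, adjusted p = 0.0599 by edgeR), and over the 19 alternative analyses it ran from -2.45 to -2.07. The adjusted p ran from 0.00403 to 1 over these 19, and Psip1 passed the threshold in 3 of them: without a filter on low counts, with sex as a term and with the replicate number as a block. The cultures carried their myeloid markers: neutrophil lineage genes summed to 34439 to 98198 RPM and mast cell and basophil genes to 2916 to 8203 RPM over the 6 libraries.

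Most of the 10 genes are known from cells other than blood. Abcc8 encodes the sulfonylurea receptor, the regulatory subunit of the ATP-sensitive potassium channel of pancreatic beta cells and neurons. Adra2c is an adrenergic receptor of the inhibitory alpha class, and Fzd8 and Fgfr1 are receptors for Wnt and fibroblast growth factor ligands. Prickle2 is a planar cell polarity protein, which places Wnt-related signals along the plane of a tissue. Uchl1 is a deubiquitinase abundant in neurons, Elavl2 a neuronal RNA-binding protein, Adamts1 a secreted metalloprotease of the extracellular matrix and Xkr6 a member of the XK-related family of membrane proteins. 1700030C10Rik is a noncoding RNA with no role given here.

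In CpG content the promoter windows used for the set ran from somewhat below the middle of all promoters, at the percentile 31.4, to CpG-rich. RefSeq promoter windows of 300 bases, from 250 before to 50 after a transcript start (GRCm38.p6), were used for 6 of the 10 genes. No window was used for Abcc8, Fzd8, Xkr6 and Fgfr1, and this does not show that RefSeq holds none for them. The 4 genes with a single window are printed 5′ to 3′, with each CpG dinucleotide in capitals. They are Uchl1 (chr5:66675871-66676170, plus strand), Adra2c (chr5:35278316-35278615, plus strand), Adamts1 (chr16:85803064-85803363, minus strand) and 1700030C10Rik (chr12:20815730-20816029, minus strand).
Uchl1: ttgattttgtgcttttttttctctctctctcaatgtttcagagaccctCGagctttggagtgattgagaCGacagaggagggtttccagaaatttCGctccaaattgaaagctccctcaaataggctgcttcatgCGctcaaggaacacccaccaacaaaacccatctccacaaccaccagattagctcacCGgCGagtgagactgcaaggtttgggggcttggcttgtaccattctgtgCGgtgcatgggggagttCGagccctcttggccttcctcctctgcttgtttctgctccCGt
Adra2c: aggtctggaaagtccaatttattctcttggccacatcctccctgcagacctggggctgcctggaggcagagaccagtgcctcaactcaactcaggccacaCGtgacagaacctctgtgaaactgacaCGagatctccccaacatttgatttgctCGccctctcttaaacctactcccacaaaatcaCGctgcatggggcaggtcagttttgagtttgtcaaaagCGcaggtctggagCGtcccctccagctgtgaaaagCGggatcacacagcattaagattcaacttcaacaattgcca
Adamts1: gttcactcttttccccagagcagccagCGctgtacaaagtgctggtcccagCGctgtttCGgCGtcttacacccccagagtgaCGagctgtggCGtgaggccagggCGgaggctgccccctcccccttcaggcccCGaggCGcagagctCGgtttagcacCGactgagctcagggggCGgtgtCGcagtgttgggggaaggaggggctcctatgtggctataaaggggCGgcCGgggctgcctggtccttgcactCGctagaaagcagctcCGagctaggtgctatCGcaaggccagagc
1700030C10Rik: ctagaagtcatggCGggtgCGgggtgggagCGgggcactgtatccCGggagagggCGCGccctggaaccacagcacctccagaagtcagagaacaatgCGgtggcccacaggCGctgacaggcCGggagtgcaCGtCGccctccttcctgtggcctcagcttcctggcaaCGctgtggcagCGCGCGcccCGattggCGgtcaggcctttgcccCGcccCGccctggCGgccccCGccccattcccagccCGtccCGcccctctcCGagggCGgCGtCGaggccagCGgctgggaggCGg
The window of 1700030C10Rik holds 29 CpG and has 72.7% G or C, at the percentile 87.1 for CpG among the 32841 windows in the table. Adamts1 has 18 CpG, while Uchl1 with 9 and Adra2c with 7 stand near the median of all windows, which is 7. The median of the 14 windows of the set was 18, and 6 of those windows belong to Elavl2.

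**Figure D1:**
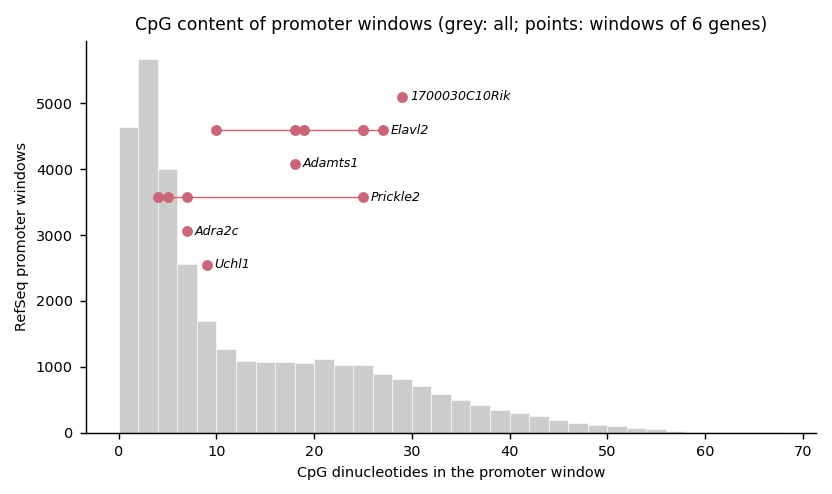
CpG dinucleotides in RefSeq promoter windows of 300 bases. Grey bars count all 32841 windows (y axis). Red points mark the 14 windows of the 6 genes with a window used, at heights without meaning. A line joins windows of 1 gene. Windows of Elavl2 run from 10 to 27 CpG and those of Prickle2 from 4 to 25, so single genes cover much of the range.

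Elavl2 has 6 windows and Prickle2 has 4, at alternative starts. The letters GGGCGG of the GC box, searched on both strands as all motifs here, occurred in 10 of the 14 windows and in 35.7% of all windows. Several of the 6 windows of Elavl2 overlap and repeat the same matches, and by gene 4 of the 6 had a match. The CCAAT box (CCAAT) was found in 9 of the 14 windows, from 4 genes, and in 37.4% of all windows. The TATA box (TATAAA) was found in 1 of the 14, that of Adamts1, and in 13.6% of all windows, and the E-box (CACGTG) in 1, that of Adra2c, and in 7.15% of all windows. The letters TCAGCACC, from the left part of the RE1 element bound by the neuronal gene repressor REST, were in none of the 14 windows and in 1.65% of all windows. A match describes letters in a window and no more.

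The genes lie apart from one another in the genome, on 9 chromosomes of GRCm38 by the GENCODE M21 annotation. Abcc8 is on the minus strand of chromosome 7 (46104523 to 46180033) and Fzd8 on the plus strand of chromosome 18 (9212163 to 9218136). Adra2c (35278319 to 35281763) and Uchl1 (66676091 to 66687234) share the plus strand of chromosome 5. The RefSeq window printed for Adra2c lies almost wholly within the gene as GENCODE places it. Prickle2 is on the minus strand of chromosome 6 (92370908 to 92706155), Xkr6 on the plus strand of chromosome 14 (63606503 to 63820809) and Adamts1 on the minus strand of chromosome 16 (85793827 to 85803113). Fgfr1 is on the plus strand of chromosome 8 (25513654 to 25575718), and 1700030C10Rik on the minus strand of chromosome 12 (20804381 to 20815779). Elavl2, on the minus strand of chromosome 4 (91250763 to 91400785), lies 7.76 Mb from Psip1 on the same chromosome, the 1 gene of the set that shares a chromosome with the targeted gene.

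The 10 genes differed in how scarce they were. Over the deep libraries and per kilobase of exon, 9 of them were low among the tested genes, from Fzd8 at the percentile 1.64 to Uchl1 at 20.2. Fgfr1 was at the percentile 45.5 and is not scarce. On the same length-corrected scale (RPM per kilobase of exon), the KO means ran from 0.343 for Fzd8 to 8.23 for Fgfr1. The mean of a tested gene over the deep libraries had a median of 6.75 on that scale. In WT, 8 of the 10 genes were under 1 RPM in both deep libraries. In RNA from whole colonies, more cells of a type and more RNA per cell cannot be told apart, and this holds for all levels that follow.

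**Figure D2:**
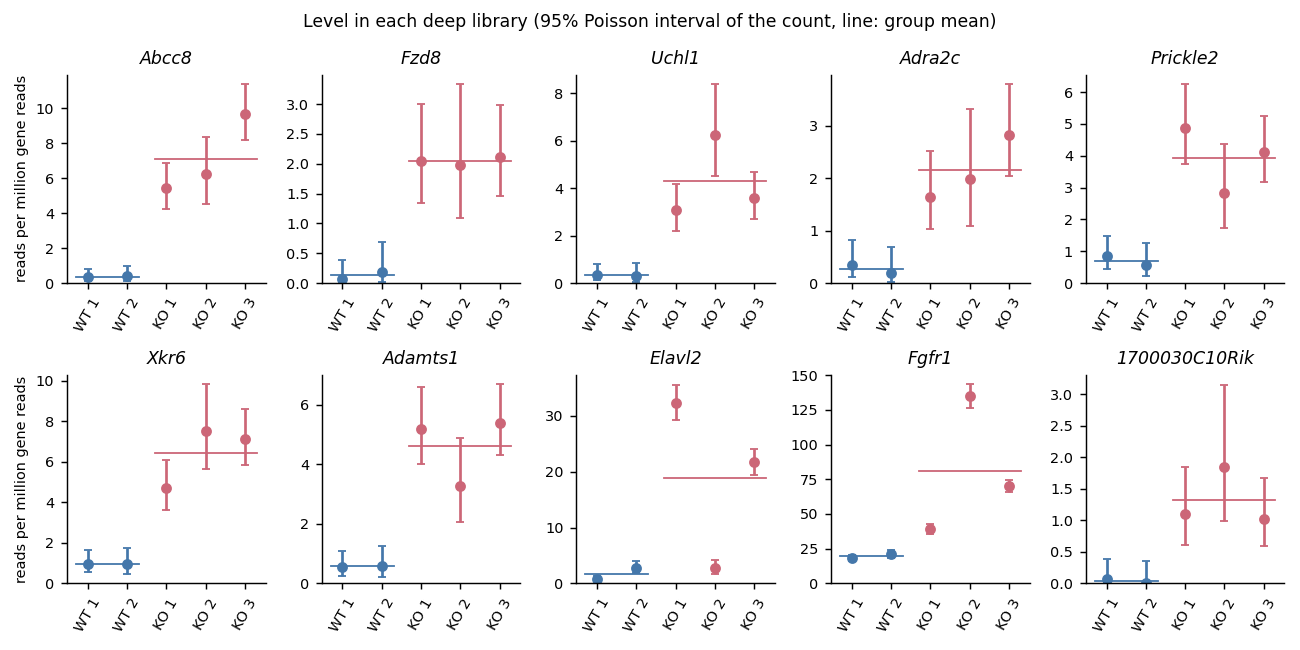
Level in RPM (y axis, linear, from 0) of each gene in WT replicates 1 and 2 and KO replicates 1, 2 and 3 (x axis). Bars are 95% Poisson intervals of the count and lines are group means. In 9 panels every red KO point lies above both blue WT points, and in that of Elavl2 the point of KO replicate 2 lies at the WT level.

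Abcc8, the channel subunit, was counted 5 and 4 times in WT replicates 1 and 2. In KO replicates 1, 2 and 3 the counts were 69, 44 and 151. As levels these were 0.349 and 0.384 RPM in WT and 5.43, 6.24 and 9.70 RPM in KO, a KO mean of 7.12 ± 2.27 (SD, n = 3). The choice of the set puts KO above both deep WT libraries, and the lowest KO library stood 14.1 times above the higher deep WT library. Pooled over libraries, the KO to WT ratio was 20.5 with an exact 95% counting interval of 10.7 to 45.4. The pore subunit that pairs with this receptor in beta cells, Kcnj11, was far scarcer, with 0 reads in the 3 WT libraries and 1, 1 and 4 in KO. The sister receptor gene Abcc9 had 1 read in all, in WT replicate 1, and the other pore gene, Kcnj8, had 0 reads in each library. None of these 3 had enough reads to be tested.

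Adra2c, the adrenergic receptor, was counted 5 and 2 times in deep WT and 21, 14 and 44 times in KO, which are 0.349 and 0.192 RPM against 1.65, 1.98 and 2.83 RPM. The KO mean was 2.15 ± 0.605 RPM (SD, n = 3), and the pooled ratio 7.90 (counting interval 3.66 to 20.3). Adra2a, another receptor of the same class, was counted 10 and 5 times in deep WT and 9, 2 and 20 times in KO, and its groups overlapped. Overlap is the usual case here and in the lists below. Only 4.84% of the tested genes were higher, and 3.54% lower, in each KO library than in both deep WT libraries.

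Fzd8, the Wnt receptor, had counts of 1 and 2 in deep WT and of 26, 14 and 33 in KO. Its KO levels were the most even of the set, at 2.04, 1.98 and 2.12 RPM (2.05 ± 0.0679, SD, n = 3), against 0.0698 and 0.192 RPM in WT. With 3 WT reads in all, the pooled ratio of 17.0 has a counting interval of 5.61 to 84.5. Prickle2, the polarity protein, had counts of 12 and 6 in deep WT and of 62, 20 and 64 in KO. These are 0.837 and 0.576 RPM against 4.88, 2.83 and 4.11 RPM (KO mean 3.94 ± 1.03, SD, n = 3), a pooled ratio of 5.68 (3.47 to 9.85). Of the genes that meet the condition it has the second smallest separation, 3.39 times between the lowest KO and the highest WT level.

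In the rest of the Wnt machinery no tested gene passed, and neither did any of all 12292 genes tested. A count of 0 passing in this or a later list is therefore the share over all genes. Of 14 other Wnt receptors and co-receptors 7 were tested, with positive log2 fold changes in 3 and negative ones in 4, a median of -0.01. The most abundant, Lrp6, Lrp5 and Fzd7, overlapped between the groups: Lrp6 stood at 72.6 and 37.8 RPM in the deep WT libraries and 38.5, 31.9 and 71.7 RPM in KO. Fzd1, a receptor named after its values were seen, was higher in each KO library (6.76, 6.52 and 11.7 RPM) than in deep WT (4.12 and 2.30 RPM), a fitted log2 fold change of 1.40 (SE 0.52) and adjusted p = 1 by edgeR. No Wnt ligand gene reached the level needed for a test, and 9 of the 19 had 0 reads in the deep libraries. The Wnt target genes Axin2 and Znrf3 were tested and did not pass. Axin2 ran from 2.21 to 3.91 RPM in the deep WT libraries and from 3.15 to 5.95 RPM in KO.

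Planar cell polarity genes lay on both sides. Of 12 tested genes 8 had values above 0 and 4 below it. Their median log2 fold change was 0.29, against 0.01 over all tested genes, and 0 passed. The scaffold gene Scrib and the Dishevelled genes Dvl1 and Dvl2, the most abundant of them, ranged from 37.1 to 109 RPM over the deep libraries. A pair of scarcer members, named after their values were seen, stood furthest out in opposite directions. Vangl1, a core polarity gene, had counts of 16 and 4 in deep WT and of 22, 30 and 66 in KO, and its log2 fold change was 2.17 (SE 0.68). Ptk7, a receptor-like polarity gene, stood at 9.63 and 10.2 RPM in deep WT and at 3.38, 2.55 and 1.80 RPM in KO, a log2 fold change of -1.87 (SE 0.49). Both had an adjusted p = 1 by edgeR.

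Fgfr1, the growth factor receptor, was the most abundant gene of the set and had the smallest ratio. Its counts were 262 and 217 in deep WT and 494, 953 and 1088 in KO replicates 1, 2 and 3, which are 18.3 and 20.8 RPM against 38.9, 135 and 69.9 RPM. By the choice of the set KO lay above both deep WT libraries. WT replicate 3, on 2 reads, stood at 71.7 RPM (counting interval 8.68 to 259 RPM), within the KO range. The KO libraries differed by 3.48 times among themselves, well beyond their counting intervals. These were 35.5 to 42.4 RPM in KO replicate 1 and 127 to 144 RPM in KO replicate 2. The pooled ratio was 3.71 (counting interval 3.36 to 4.10), and the lowest KO level was 1.87 times the highest deep WT level. The order of the KO libraries for Fgfr1 was also their order for the summed mast cell and basophil markers, at 2916, 8203 and 4204 RPM in KO replicates 1, 2 and 3. WT replicate 1 had 5081 RPM of those markers at the lowest Fgfr1 level. KO replicate 2, the highest library for Fgfr1, is also the one with 15.7% mitochondrial reads. Without it the fitted log2 fold change was 1.35, against 2.02 with all libraries. The part of cell makeup and of RNA quality in the Fgfr1 level was not tested.

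Among the FGF receptor kinases only Fgfr1 was read more than 2 times in any library. Fgfr2 and Fgfr4 had 0 reads in each library and Fgfr3 had 2 reads, both in WT replicate 2, while the adaptor gene Frs2 stood at 22.4 to 41.4 RPM over the deep libraries with overlapping groups. Of 22 FGF ligand genes 2 were tested, Fgf2 and Fgf3, and 0 passed. Fgf3 stood at 2.37 and 1.34 RPM in the deep WT libraries and at 3.46, 4.68 and 2.70 RPM in KO, and Fgf2 overlapped between the groups. Of 8 tested feedback and target genes of FGF signalling 5 lay above 0 and 3 below, the median was 0.08, and 0 passed. Dusp6, a phosphatase that damps ERK signalling, stood at 138 RPM in KO replicate 2, the library with the highest Fgfr1 level, and at 59.4 to 65.3 RPM in the other deep libraries. Spred1 and Spred2, inhibitors of the same cascade, overlapped between the groups.

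Uchl1, the deubiquitinase, had counts of 5 and 3 in deep WT and of 39, 44 and 56 in KO, which are 0.349 and 0.288 RPM against 3.07, 6.24 and 3.60 RPM. The KO mean was 4.30 ± 1.70 RPM (SD, n = 3), and the pooled ratio 12.2 (counting interval 6.01 to 28.7). KO replicate 2 was highest, as it was for Fgfr1. Of the 4 other enzymes of the family 3 were far more abundant and had overlapping groups, as most tested genes did. Bap1, a chromatin deubiquitinase, stood between 79.2 and 90.7 RPM in the deep libraries, Uchl5 of the proteasome between 68.3 and 100.5, and Uchl3 between 18.4 and 29.4. Of these 3, 0 passed the test, and the fourth, Uchl4, had at most 4 reads in a library.

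Adamts1, the secreted protease, had counts of 8 and 6 in deep WT and of 66, 23 and 84 in KO, which are 0.558 and 0.576 RPM against 5.19, 3.26 and 5.40 RPM (KO mean 4.62 ± 1.18, SD, n = 3). The pooled ratio was 8.65 (counting interval 5.02 to 16.2). Its neighbour and relative Adamts5, 53.1 kb away, overlapped between the groups, with counts of 38 and 4 in deep WT and of 7, 2 and 29 in KO. Of 18 other ADAMTS genes 3 were tested, Adamts10, Adamts6 and Adamts3, and 0 passed. Adamts10, the most abundant, stood at 40.8 and 28.8 RPM in the deep WT libraries and at 50.9, 71.1 and 38.8 RPM in KO.

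Elavl2, the neuronal RNA-binding protein, was the least even gene of the set. Its counts were 10 and 29 in WT replicates 1 and 2, then 411, 19 and 338 in KO replicates 1, 2 and 3, which are 0.698 and 2.78 RPM against 32.3, 2.69 and 21.7 RPM. KO replicates 1 and 3 were high and KO replicate 2, the library rich in mitochondrial reads, was at the WT level, a range of 12.0 times within the genotype (KO mean 18.9 ± 15.0, SD, n = 3). The counting interval of KO replicate 2 (1.62 to 4.20 RPM) took in the level of WT replicate 2, and those of KO replicates 1 and 3 (29.3 to 35.6 and 19.5 to 24.2 RPM) lay above it. Its pooled ratio of 13.8 (counting interval 10.0 to 19.5) therefore rests on KO replicates 1 and 3. The general family member Elavl1 stood between 67.5 and 104 RPM with overlapping groups, and the other neuronal members, Elavl3 and Elavl4, had 3 and 1 reads in all.

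Xkr6 had counts of 14 and 10 in deep WT and of 60, 53 and 111 in KO, which are 0.977 and 0.960 RPM against 4.72, 7.51 and 7.13 RPM (KO mean 6.45 ± 1.51, SD, n = 3). The pooled ratio was 6.54 (counting interval 4.28 to 10.4). Its tested relatives Xk, Xkr8 and Xkr5, of which Xkr8 encodes a lipid scramblase of dying cells, did not pass and overlapped between the groups. 1700030C10Rik was the scarcest in WT, with 1 read in WT replicate 1, 0 in WT replicate 2, which allows up to 0.288 RPM, and 14, 13 and 16 in KO. Its levels were 0.0698 RPM in WT replicate 1 and 1.10, 1.84 and 1.03 RPM in KO (KO mean 1.32 ± 0.451, SD, n = 3). This order of the groups is the one that chose the gene. On 1 WT read the pooled ratio of 30.1 has a counting interval of 5.12 to 1217. A pseudogene annotated under the same symbol overlaps it on the same strand and had 2, 0 and 1 reads in KO, and reads that match both may be missing from each count, so this gene's level is uncertain.

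Ratios between libraries of the same sex describe the same values again. They set KO replicate 1 against WT replicate 2 among females and KO replicates 2 and 3 against WT replicate 1 among males. For the 9 genes that meet the condition the choice of the set puts these ratios above 1, so their direction is no sign of stability, and only their sizes are of interest. Elavl2 in KO replicate 2 stood 3.86 times above WT replicate 1 (counting interval 1.71 to 9.29), although it was not above WT replicate 2. The smallest ratio was that of Fgfr1 among females, 1.87 (1.59 to 2.20), against 7.39 and 3.82 among males. As sex, library and genotype share so few samples, these ratios compare libraries and carry no test of sex.

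**Figure D3:**
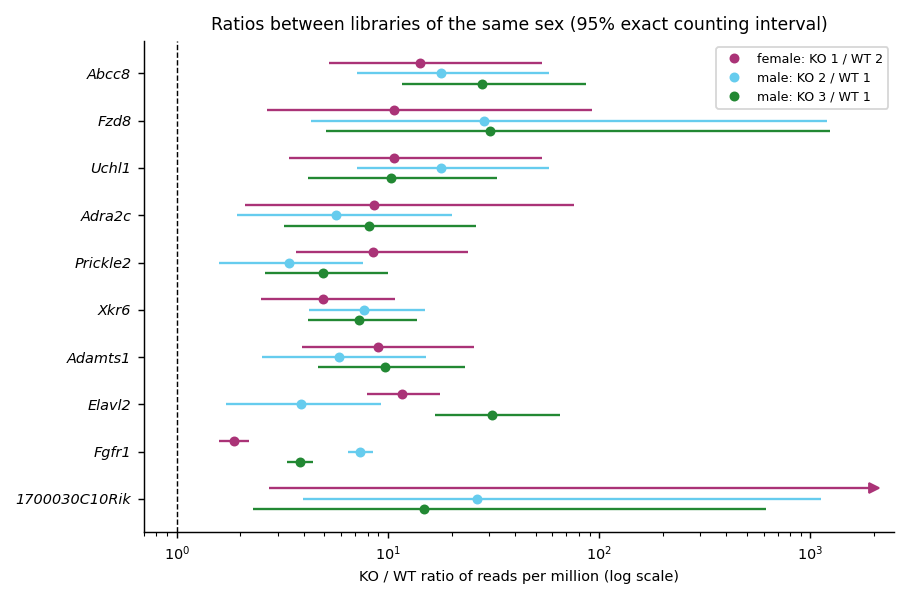
KO to WT ratios of levels in RPM between libraries of the same sex (x axis, log scale), with exact 95% counting intervals as lines. The dashed line marks a ratio of 1, and the arrow marks 1700030C10Rik among females, where WT replicate 2 had 0 reads and the interval has no upper end. All lines lie right of 1, a direction that the choice of the genes fixes for 9 of the 10.

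The third WT library could not speak to most of the set. It had 0 reads of 9 of the genes, where the KO level would give 1.42 reads and the deep WT level 0.142 reads over those 9 together. A count of 0 allows up to 3 reads, which covers both. Fgfr1 had 2 reads (interval 0.242 to 7.22), where the KO level would give 2.27 and the deep WT level 0.546.

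The strand of the reads matched the genes. Of the reads assigned on either strand 0.375% were antisense to the 10 genes (19 against 5046 in the deep libraries), below the 1.70% over all tested genes. Fgfr1 gave 3014 of those 5046 sense reads. Adra2c, at 3.37% on 3 antisense reads, and Adamts1, at 2.60% on 5, lay above the share of all tested genes. Antisense transcripts annotated across Uchl1, Xkr6 and Fgfr1 had at most 3 reads in a deep library.

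Over the whole table no gene passed edgeR's quasi-likelihood test at an adjusted p of 0.05 (0 of 12292, 0.0%), while 152 genes (1.24%) were higher and 26 (0.212%) lower at an unadjusted p under 0.05. DESeq2 called 1 gene and limma-voom 0. A KO level in each library at more than 2 times the highest deep WT level was reached by 37 tested genes (0.301%). Among them were 8 of the 10, which were chosen on the same values, so this count is a description. Such genes were mostly scarce: 35 of the 37 had a mean under 10 RPM, as did 26.9% of the tested genes.

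**Figure D4:**
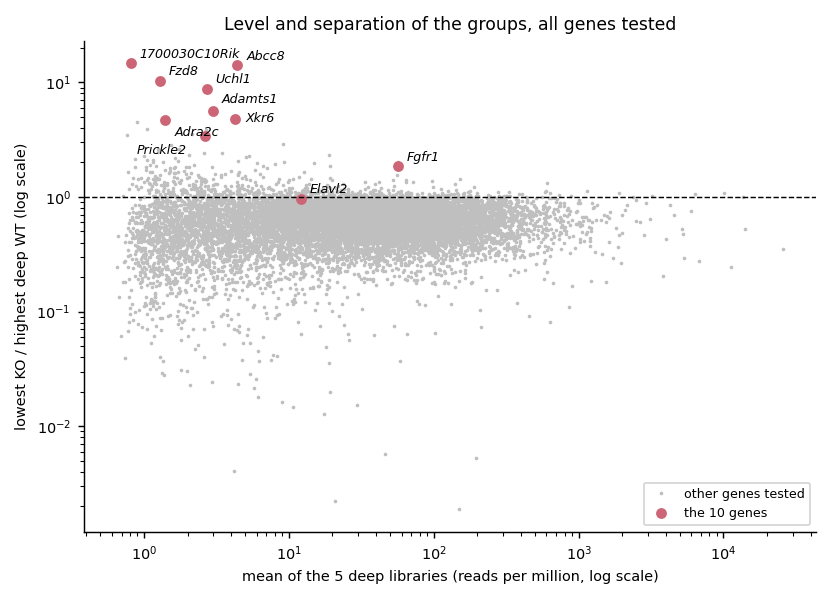
Mean level over the deep libraries (x axis, RPM, log scale) against the lowest KO level divided by the highest deep WT level (y axis, log scale) for 12258 tested genes. The 34 tested genes with 0 reads in a KO library or in both deep WT libraries are not drawn. Most of the 10 genes (red) lie at the upper left, Fgfr1 lies to the right of them, and Elavl2 lies just below the dashed line at 1.

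None of the tested relatives of the set passed, as none of all 12292 tested genes did. Of 152 related genes in 14 lists, 54 were tested, and 0 passed in either direction (3 had an unadjusted p under 0.05, 2 higher and 1 lower, by edgeR). Positive values numbered 30 and negative values 24, with a median log2 fold change of 0.06 against 0.01 over all tested genes. The sign of this median turned in places. With both WT replicate 3 and KO replicate 2 left out the related genes' median was -0.02, as was that of all genes. By DESeq2, run without the filter on low counts, it was -0.69 over 115 related genes. The median of all 22213 genes was -0.32 there. These are larger and scarcer sets of genes, so the DESeq2 medians are not of the same genes. Being higher in each KO library than in both deep WT libraries was true of 5 of the 54 (Fzd1, Ryk, Celsr1, Vangl1 and Fgf3), or 9.26%, against 4.84% of all tested genes. The subunits of the REST repressor complex, which silences neuronal genes in other tissues, lay above 0 in 3 and below 0 in 7 of 10 tested genes (median -0.10), and 0 passed. Ehmt2, Rcor1 and Sin3a, its most abundant members, overlapped between the groups.

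**Figure D5:**
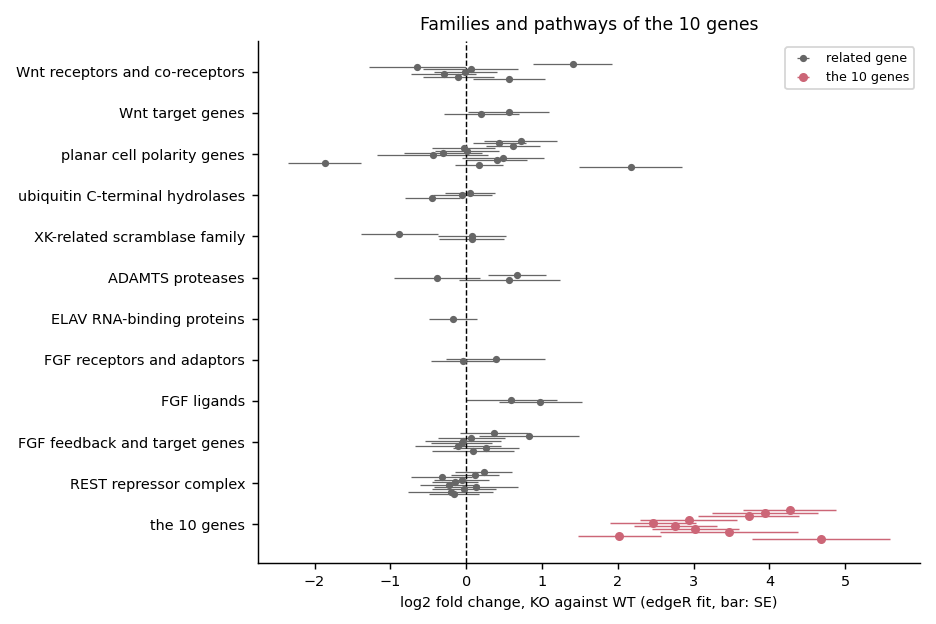
Log2 fold change between KO and WT from the edgeR fit (x axis, bars are SE) for 53 of the 54 tested related genes by list and for the 10 genes. The 10 genes (red) run from 2.02 to 4.68 because they were chosen on this contrast, and most related genes lie near 0.

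Markers of other cell types were checked beside these levels. Of 14 stromal cell markers 10 had reads in the deep libraries, and Dcn, Lum, Cxcl12 and Col3a1 had 0 there. The summed stromal level was 21.8 and 23.5 RPM in the deep WT libraries and 42.1, 27.4 and 28.3 RPM in KO, so it was higher in each KO library. Col1a1, a bone and stroma collagen, made up most of the difference in KO replicate 1 (29.5 RPM, against 9.84 and 12.4 in WT), and its KO range of 9.38 to 29.5 overlapped with WT. WT replicate 3, with 7 stromal reads, stood at 251 RPM. Of 18 neuronal markers 10 had reads and 8 had 0 in the deep libraries, among them Syt1, Rbfox3, Gap43 and Dcx. Their sum ranged from 16.2 to 37.0 RPM in the deep WT libraries and from 28.2 to 56.9 in KO, mostly Ncam1, an adhesion molecule of neurons and some blood cells. Ncam1 ordered the deep libraries as Elavl2 did: 51.4 RPM in KO replicate 1, 32.3 in KO replicate 3, 31.8 in WT replicate 2, 22.2 in KO replicate 2 and 14.3 in WT replicate 1. Endothelial markers overlapped, at 318 and 328 RPM in WT and 304 to 420 in KO. All 4 tested stromal and all 3 tested neuronal markers had log2 fold changes above 0 (medians 0.53 and 0.69). Of the tested endothelial markers 3 lay above 0 and 1 below (median 0.46), and of the monocyte and macrophage markers 4 above and 5 below (median -0.01). Neutrophil lineage markers lay above 0 in 1 and below in 9 (median -0.37), and erythroid markers in 1 and 5 (median -0.67). For mast cell and basophil markers these counts were 5 and 4 (median 0.007), and the 1 tested lymphoid marker lay at -0.99. In these lists 0 passed, and the median over all tested genes was 0.01. The part of these markers in the levels of the 10 genes was not tested.

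No tested neighbour of the set passed, as none of all 12292 tested genes did. The nearest gene on either side with at least 20 reads in the deep libraries was taken for each, 20 genes in all, of which 15 were tested. Of these 10 lay above 0 and 5 below, the median log2 fold change was 0.17, and 0 passed (1 at an unadjusted p under 0.05). Letm2, 2.77 kb from Fgfr1 on the other strand, stood at 1.47 and 1.54 RPM in the deep WT libraries and at 2.91, 3.40 and 1.09 RPM in KO. Ush1c, 15.3 kb from Abcc8 and on its strand, had counts of 4 and 6 in deep WT and of 19, 12 and 19 in KO. Its log2 fold change of 1.81 (SE 0.61), the largest among the neighbours tested, had an adjusted p = 1 by edgeR. Ush1c was higher in each KO library than in both deep WT libraries. The other neighbours of which this was true were Lrpap1, 173 kb from Adra2c, and Cdkn2b, 1940 kb from Elavl2. These were 3 of the 15 tested neighbours, against 4.84% of all tested genes.

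Other genes had profiles of the same shape. Likeness was the Euclidean distance between log2 RPM profiles, centred over the deep libraries, among 12341 named genes with at least 20 reads. The 5 genes closest to the mean profile of the set were Ric3, a chaperone of nicotinic acetylcholine receptors, the RNA-binding gene Rbms3, the histone variant gene H2afy2, the transporter gene Slc29a4 and the RNA-binding gene Samd4, at distances of 0.975 to 1.07. Ric3 had counts of 4 and 2 in deep WT and of 14, 14 and 26 in KO, and H2afy2 of 7 and 10 against 54, 29 and 57. Within the set Adamts1 was closest to the mean profile, at 0.52, and Elavl2 farthest, at 2.92, followed by Fgfr1 at 1.91. Fam155a, listed with 0 reads in WT and 7, 5 and 9 in KO, was the nearest gene to Abcc8, Fzd8, Uchl1 and 1700030C10Rik. The nearest to Adra2c was Rbms3, to Prickle2 Nipal4, to Xkr6 Ric3, to Adamts1 Slc29a4, to Elavl2 Dact2 and to Fgfr1 Gpr179. Dact2 had 11, 0 and 17 reads in KO, low in the same library as Elavl2. These genes were picked for their likeness, so their levels are a description, and with 5 libraries and few reads many profiles look alike.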

How the data were processed

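Counts per gene of 6 libraries were used as deposited, in tables laid out like the gene counts that STAR writes. Per the submitters' processing notes STAR 2.5.1b, GRCm38 and DESeq2 were used (the notes give DESeq2 no task). The sources used here name no annotation release. Per the labels' protocols, polyadenylated RNA was selected and libraries were stranded (TruSeq Stranded mRNA), so column 4, the reverse strand, was used. It held 95.6% to 98.8% of the gene reads of both strands. Rows that name no gene (25.6% to 39.9% of reads in the deep libraries) were left out. The 2 runs of WT replicate 3 (27351 and 558 gene reads) were summed.

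Of 46983 genes, 46488 matched GENCODE M21 by identifier. In edgeR 4.0.16, filterByExpr removed low genes, TMM set the scaling, and the two-sided quasi-likelihood test (glmQLFit, robust, then glmQLFTest) had genotype as its only term. Calls used a Benjamini-Hochberg adjusted p of 0.05. The fit was tested on simulated data with changes placed in more abundant genes only, so this does not cover the scarce genes of the set. RPM are reads per 1000000 gene reads of a library. Alternatives used DESeq2 1.42.0 and limma 3.58.1 among others. The members, lists and tests were chosen with earlier results of these data known. The rule for naming covered the 10 genes, Psip1, the 3 most abundant markers of each list, the nearest profiles and the chromosomal neighbours. In each related list it covered all genes of lists up to 4 or the 3 most abundant tested ones. Not all genes under the rule are named in the text, and most of the markers under it are left out. Of the related genes tested, 1 is counted but not reported here. Any other gene, the markers named for 0 reads among them, was singled out once its values were known.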

Additional observations from a re-analysis of the deposited data

How the results depend on the processing

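The count of genes that passed the threshold was 0 and rose to 1 with DESeq2, 2 with library size only, 9 without a filter and 4 with sex as a term, which was added after the data were seen. Leaving out 1 library gave 0 to 5 genes: 5 without WT replicate 1 or KO replicate 3, 3 without WT replicate 2 and 2 without KO replicate 1. RLE scaling, no mitochondrial genes, a filter of at least 10 reads in 3 libraries (12390 genes tested), limma-voom, counts without strand, the first run alone, a prior count of 2 and both weak libraries left out (added later) gave 0. With the replicate block 13 genes passed, 8 higher and 5 lower, but the labels do not say that replicate numbers pair libraries. Same-numbered libraries correlated at -0.373, -0.361 and -0.564 across 391 genes with at least 10 reads in WT replicate 3. Such values serve to rank the pairs only, and a negative one does not mean that the levels of a pair run opposite. Likeness of reads cannot show whether libraries were paired. Each library was closest to one of another number, at 0.779 for WT replicate 1 with KO replicate 3, 0.75 for WT replicate 2 with KO replicate 1 and 0.611 for WT replicate 3 with KO replicate 2. No fit used that order, since the labels do not give it. In it WT replicate 1 and KO replicate 3 are both male, and WT replicate 2 and KO replicate 1 both female. WT replicate 3 and KO replicate 2 are the libraries rich in mitochondrial reads. None of the 19 alternatives called a related gene. The condition on the set held for all 10 genes with RLE or TMM scaling (TMM added later), without mitochondrial genes, and without WT replicate 2 or KO replicate 2, and for 9 in the other settings that bear on it. The log2 fold changes of the 10 genes ran from 1.35 to 6.63 over 190 refits and moved beyond the SD of the KO libraries in 23. Their sign follows largely from the choice of the set, which all but fixes it for the 9 genes that meet the condition. The value of 1700030C10Rik ran from 1.63 by DESeq2 to 6.63 without WT replicate 1, and that of Fgfr1 fell from 2.02 to 1.35 without KO replicate 2. The median of all genes shifted to -0.32 with DESeq2, over 22213 genes without the filter, and to 0.13 without WT replicate 1. Without WT replicate 2 Elavl2 rose to 4.73 from 3.47. Depth limits the scarce genes, since WT replicate 3 adds nothing and 1 to 14 WT reads carry most ratios.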
